A study of Mus musculus with 686 samples.

Results

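The blood lineage microRNAs (miRNAs) miR-142a-3p, miR-142a-5p, miR-150-5p and miR-223-3p were examined (mmu-miR-142a-3p, mmu-miR-142a-5p, mmu-miR-150-5p and mmu-miR-223-3p in the files), which are 4 of the 1964 miRNAs of the deposited count table. They are listed by name, for what is known of the cells that make them, by a rule that uses no measured value. The 686 small RNA libraries come from 13 tissues of female BALB/cAnNTac mice of 3 or 8 months in 3 arms. Flight (FL) mice lived on the International Space Station (ISS), mice of the habitat control (HGC) on Earth in flight-type habitats with matched conditions, and those of the vivarium control (VGC) in standard cages, and all ate the same food bars. In the live animal return (LAR) extraction, mice spent 39.5 days on the ISS, and tissues were taken 2 to 4 days after splashdown and snap-frozen. In the TERM extraction, mice were euthanized 22 to 24 days after launch, and the carcasses were frozen whole and thawed later for dissection, except that the spleen was kept in RNAlater. Ground controls of each extraction were handled on the matching schedule. LAR held 114 FL, 113 HGC and 121 VGC libraries of 40 mice, and TERM held 115, 114 and 109 libraries of 43 mice. LAR and TERM differ in time and in preservation, which cannot be told apart, and the FL mice also in the return to Earth.

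A miRNA is cut from a hairpin precursor, and 1 or both strands (5p and 3p) are loaded into Argonaute, where the seed near the 5′ end pairs with target mRNAs. miR-142 is made across the blood lineages, in lymphocytes, granulocytes, macrophages and platelets alike. miR-150 is known from mature B and T lymphocytes, where it targets the transcription factor Myb, and is switched off in their precursors. miR-223 is known from neutrophils and monocytes, where it restrains granulocyte output and activation. In a piece of solid tissue, such miRNAs can come from resident leukocytes, from blood in the vessels or from other cells that make them at a low level. Fewer blood cells and less of a miRNA per cell cannot be told apart in these bulk libraries, and no cell counts were measured.

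The mature sequences of the 3 members held in the RefSeq table of build GRCm38.p6 are shown to set the seeds (bases 2 to 8, in capitals) beside each other.

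miR-142a-5p: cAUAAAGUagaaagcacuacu

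miR-142a-3p: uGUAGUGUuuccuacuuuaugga

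miR-223-3p: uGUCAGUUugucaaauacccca

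miR-142a-5p lies at chr11:87756867-87756887 and miR-142a-3p at chr11:87756903-87756925, both on the plus strand in the exon of Mir142, within an intron of the host noncoding RNA Mir142hg and opposite to Mir142b on the minus strand. miR-223-3p lies at chrX:96242884-96242905 on the plus strand, in the exon of Mir223 and in an exon of the noncoding RNA F630028O10Rik. The 3 seeds differ, and none of the 1738 mature entries of the table under another name had any of them, so that both strands of the miR-142a hairpin carry a seed of their own. miR-150-5p is given by name only.

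Levels are counts per 1 M miRNA counts of the library (CPM, with M for mega), and log2 values are of CPM + 1. The median library held 3.88 M miRNA counts, the shallowest 0.181 M and the deepest 30.5 M. Every library held reads of every member, with at least 31 counts of miR-142a-3p, 11 of miR-142a-5p, 206 of miR-150-5p and 26 of miR-223-3p. The miRNA profiles were compared with the tissue labels without the members, and 165 of 686 libraries (24.1%) were closer to another tissue than to their own. Of these, 118 were in 11 of the 44 sequencing pools, and of the 47 others 34 were MAT. The share was 24.9% in FL, 18.9% in HGC and 28.3% in VGC. By their medians, 15 of 18 tissue marker miRNAs were highest in the labelled tissue. Libraries keep their labels here, and values without the 168 libraries of the 11 pools are given beside the main results.

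All 4 members were highest in the spleen, the organ that filters blood and stores lymphocytes. miR-142a-3p had a median of 14038 CPM in spleen (107 to 25364, n = 47), 7601 in thymus (96.4 to 28730, n = 58) and 1616 in MAT (mesenteric adipose tissue; 123 to 17958, n = 57). Pancreas followed at 999, lung at 616 and liver at 476 CPM, then SCAT (subcutaneous adipose tissue), BAT (brown), GAT (gonadal), heart, kidney and diaphragm between 320 and 182 CPM. Brain was last at 33.6 CPM (13.7 to 1436, n = 25). The lowest spleen and thymus libraries lie below the median of most other tissues, and without the 11 pools the spleen ran from 9130 to 25364 CPM. miR-142a-5p kept this order at a lower level, with medians of 3370 CPM in spleen, 1906 in thymus, 758 in MAT and 14.4 in brain. The medians of both strands spanned 406-fold and 219-fold between spleen and brain, against a median span of 18.1-fold over 602 miRNAs (475-fold, 261-fold and 20.3-fold without the pools).

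miR-150-5p was the most abundant member in all 13 tissues by its median over both extractions. In TERM thymus alone miR-142a-3p was more abundant (10136 against 8177 CPM). The miR-150-5p median was 43107 CPM in spleen (608 to 146900), where it ranked 6th of 1427 miRNAs, and 10400 CPM in thymus (479 to 52380), where it ranked 19th. GAT followed at 10142 CPM, then diaphragm (8560), MAT (8240), SCAT (6648), lung (6150), BAT (5781), heart (3384), brain (3190), pancreas (2746), kidney (947) and liver (714). Its span over tissues was 60.3-fold, the smallest of the members, and its low end was the liver and not the brain. miR-223-3p had a median of 6085 CPM in spleen (124 to 11195) and then stood in a narrow band, 1350 in SCAT, 1047 in MAT, 1044 in GAT, 818 in lung and 790 in thymus. It was lowest in brain at 32.1 CPM (14.2 to 563), below heart (303), diaphragm (307) and kidney (333). By medians over both extractions, the thymus, 2nd for both miR-142a strands and for miR-150-5p, was thus 6th for miR-223-3p. In TERM alone the miR-150-5p median was higher in MAT (56372 CPM) than in thymus (8177 CPM).

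**Figure D1:**
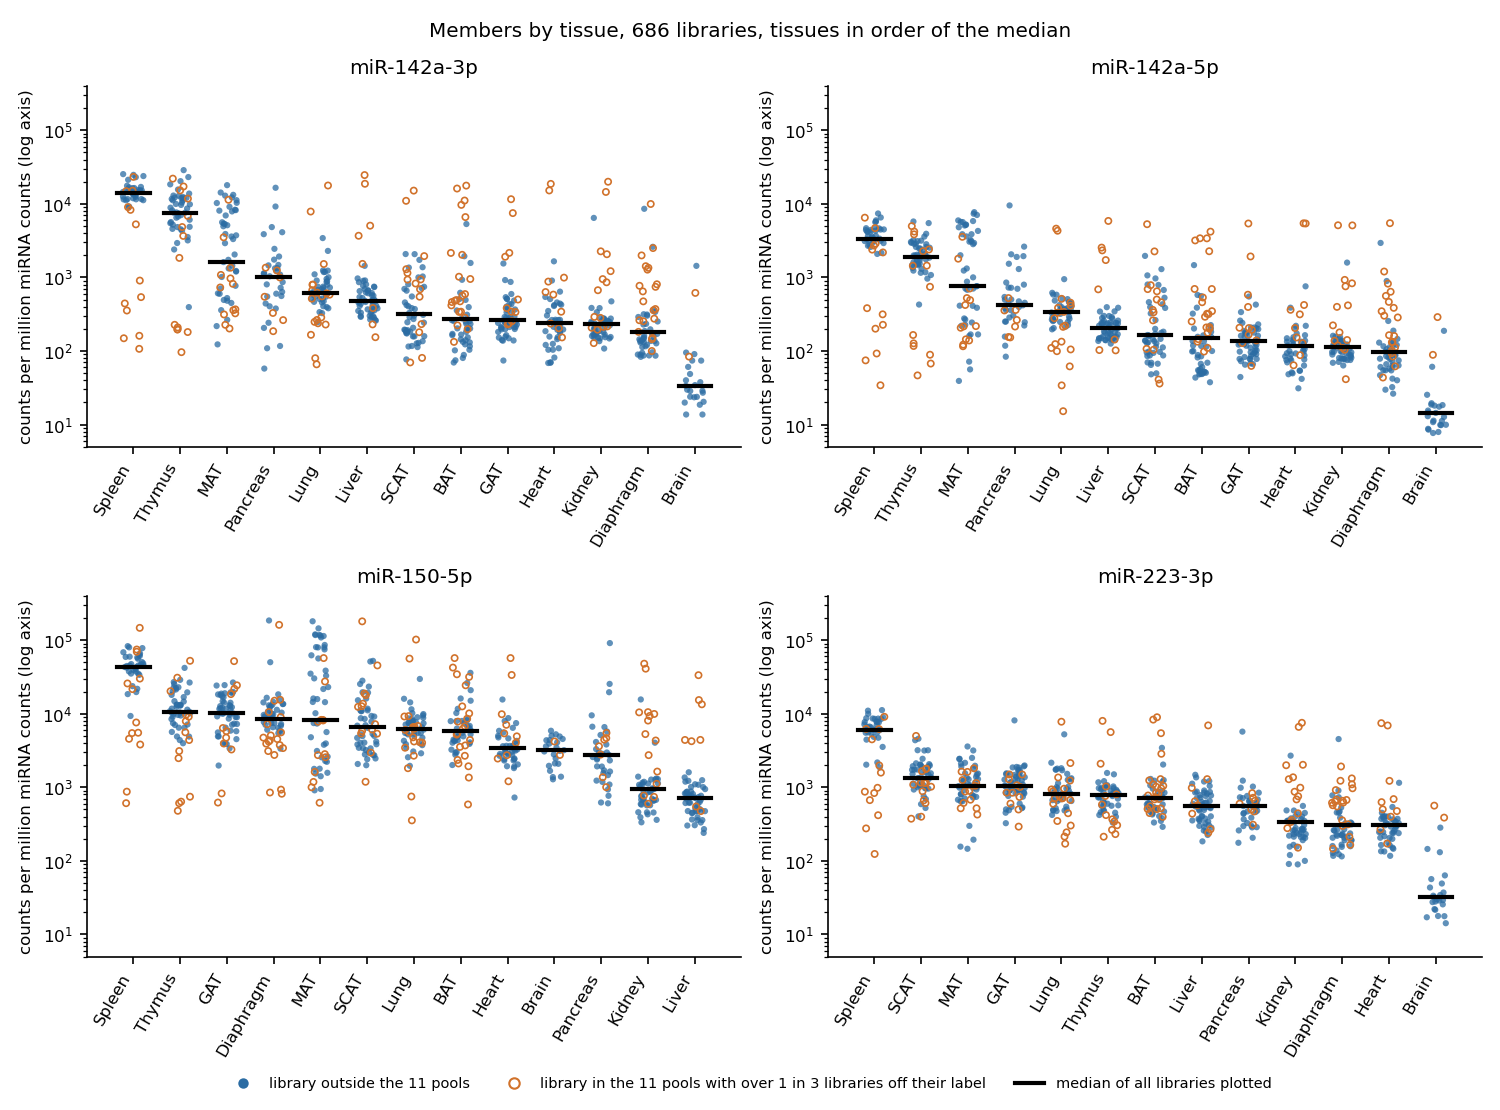
Level of each member (CPM, log axis) in each library, by tissue. Blue filled points are libraries outside the 11 pools, orange open points are libraries in those pools, and black bars are medians over all libraries of a tissue. Spleen medians are the highest in each panel (14038 CPM for miR-142a-3p, 43107 for miR-150-5p, 6085 for miR-223-3p), and orange points reach far from the blue ones in most tissues.

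Neighbours in each order were compared within mice by a 2-sided sign-flip permutation test of the log2 difference, with p adjusted over 72 such tests. By CPM, 4 of the 48 steps in level differed beyond the spread. That count depends on the scaling, since 36 steps passed per 1 M counts of all 7 RNA classes (rpmm), 3 of each member against the order given here, and 19 with TMM scaling. miR-142a-3p was 2.82-fold higher in thymus than in MAT (higher in 36 of 55 mice, adjusted p = 0.000360), and higher by 1.10 on the log2 scale without every library closer to another tissue and by 0.95 in TERM alone (11 of 27 mice), neither of which passed. Spleen against thymus was a log2 difference of 0.64 for the same strand (23 of 36 mice, adjusted p = 0.483). miR-150-5p was higher in spleen than in thymus by 1.93 (31 of 36 mice, adjusted p = 0.000240), and by 1.89 in 18 of 18 mice without the 11 pools. miR-223-3p was higher in spleen than in SCAT by 1.29 (28 of 36 mice, adjusted p = 0.00475), and by 1.96 in 17 of 18 mice without the pools. In LAR alone and in TERM alone, no miR-223-3p step passed. miR-150-5p was higher in pancreas than in kidney by 1.40 in CPM (29 of 37 mice, adjusted p = 0.00684), but lower by a log2 difference of -0.85 in rpmm. Without the pools the thymus to MAT step of miR-142a-3p was 1.44, and further steps passed. These were spleen above thymus for miR-142a-5p (0.67, 15 of 18 mice, adjusted p = 0.0170) and lung above liver for both miR-142a strands (0.55 and 0.82). BAT above heart for miR-150-5p (0.91) and pancreas above kidney for miR-223-3p (1.07) passed as well.

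Brain, with 25 libraries, had the lowest miR-142a and miR-223-3p levels but not the lowest miR-150-5p. In LAR brain, miR-150-5p was 1957, 3067, 4357 and 5866 CPM in FL, 2796, 3462, 4906 and 5030 in HGC, and 2086, 3190, 3600 and 4196 in VGC. In these libraries miR-142a-3p was 23.5, 23.9, 33.6 and 60.8 CPM in FL, 13.7, 29.8, 34.4 and 1436 in HGC, and 13.7, 19.9, 28.8 and 616 in VGC. The miR-150-5p groups overlap and hold no library apart, and in miR-142a-3p the highest HGC and the highest VGC library lie far above the next. Brain miR-150-5p did not differ detectably from that of heart within mice (log2 difference of heart minus brain -0.04, 9 mice, adjusted p = 0.952, exact permutation test). The step from heart to brain for miR-223-3p was 2.75 (8 of 9 mice, adjusted p = 0.0734, exact permutation test), which did not pass.

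The scale mattered for the middle of the orders. miRNAs made up a median of 1.88% of the counts of 7 RNA classes in pancreas and 2.22% in GAT, but 14.3% in heart and 14.5% in lung. In rpmm the spleen was again first for all 4 members, with medians of 881 for miR-142a-3p, 230 for miR-142a-5p, 2976 for miR-150-5p and 440 for miR-223-3p. Brain was again last for both miR-142a strands and miR-223-3p. For miR-150-5p, GAT was 3rd by CPM and 10th by rpmm, and the lowest tissue was liver by CPM and pancreas by rpmm (50.3 rpmm). Between LAR and TERM, the orders of the 13 medians had a Spearman's rho of 0.962 for miR-142a-3p, 0.907 for miR-142a-5p and 0.962 for miR-223-3p. It was lower for miR-150-5p, at 0.731. There MAT was below thymus in LAR (3304 against 15815 CPM) and above it in TERM (56372 against 8177 CPM). These values are a description over 13 tissues that partly share mice.

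The log2 ratio of miR-150-5p to miR-223-3p within a library sets a lymphoid against a myeloid miRNA and needs no scaling between libraries. Its median was highest in brain at 6.54, or 93.2-fold (2.83 to 8.59), then diaphragm at 5.02, or 32.5-fold. MAT (13.1-fold), thymus (12.9-fold) and heart (11.9-fold) came next, then BAT (8.60-fold), lung (8.11-fold), GAT (8.03-fold), spleen (7.00-fold), SCAT (5.34-fold), pancreas (4.69-fold) and kidney (2.84-fold). In the liver both were nearly equal, at 0.31 or 1.24-fold (-1.79 to 4.56). The tissues with the highest ratio, brain and diaphragm, were thus not those with the most of either member, and had little miR-223-3p (32.1 and 307 CPM). Diaphragm was above MAT by 1.14 (37 of 56 mice, adjusted p = 0.0175), or by 0.46 and not passing without the libraries closer to another tissue, and kidney above liver by 1.31 (45 of 56 mice, adjusted p = 0.000240). Brain against diaphragm was 1.49 (7 of 9 mice, adjusted p = 0.109, exact permutation test), and the 9 steps from MAT to kidney did not pass. The place of MAT rests on TERM, where its ratio was 21.3-fold, against 4.26-fold in LAR. In LAR alone MAT lay below thymus by 1.38 on the log2 scale (lower in 20 of 28 mice, adjusted p = 0.0301), against the order given, and its median was below those of all other tissues but kidney and liver. Without the 11 pools the brain ratio was 109-fold, the liver ratio 1.15-fold, and pancreas was also above kidney by 0.99 (19 of 25 mice, adjusted p = 0.0111).

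Against miR-142a-3p, the miRNA shared by the blood lineages, miR-150-5p was 80.7-fold higher in brain, 46.9-fold in diaphragm and 34.5-fold in GAT, but 3.20-fold in spleen, 1.70-fold in thymus and 1.36-fold in liver. In thymus the miR-150-5p median was above that of miR-142a-3p in LAR (15815 against 6601 CPM) and below it in TERM (8177 against 10136 CPM). miR-223-3p was 4.06-fold the level of miR-142a-3p in SCAT, 3.60-fold in GAT and 2.64-fold in BAT. It was 0.594-fold in MAT, 0.530-fold in spleen and 0.117-fold in thymus. The 3 fat depots other than MAT therefore held more miR-223-3p than miR-142a-3p, and the lymphoid organs less. Without the pools these were 82.1-fold, 58.4-fold, 41.3-fold, 2.76-fold, 1.37-fold and 1.35-fold for miR-150-5p, and 4.98-fold, 3.93-fold, 3.29-fold, 0.419-fold, 0.481-fold and 0.0870-fold for miR-223-3p. These medians have no test of their own.

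Both strands of the miR-142a hairpin were kept, with the 3p strand above the 5p strand in the median of every tissue. The median ratio was 3.57-fold in thymus and 3.46-fold in spleen, and between 1.73-fold (SCAT) and 2.22-fold (heart and liver) in the other 11 tissues. Spleen was above heart, its next neighbour, by 0.66 on the log2 scale (36 of 45 mice, adjusted p = 0.000240), and by 0.88 without the pools (25 of 27 mice). Thymus and spleen did not differ detectably (thymus minus spleen -0.074, 36 mice, adjusted p = 0.813). The strands thus stood further apart in the lymphoid organs than in any other tissue by their medians.

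**Figure D2:**
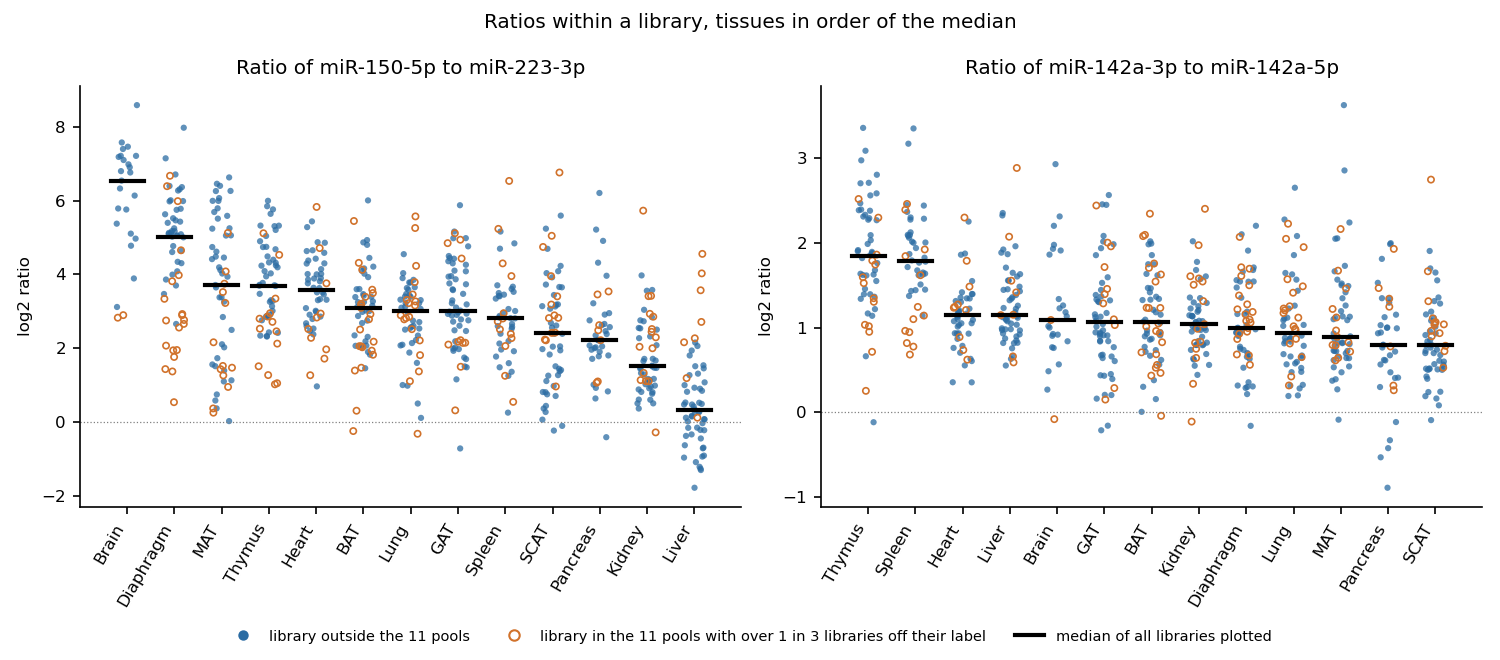
Log2 ratio within each library, by tissue, of miR-150-5p to miR-223-3p and of miR-142a-3p to miR-142a-5p. Points and bars are as in the plot of levels. The first ratio falls from a median of 6.54 in brain to 0.31 in liver, and the second stands at 1.84 in thymus and 1.79 in spleen above 0.79 to 1.15 elsewhere.

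Over the 13 tissue medians, miR-142a-3p and miR-142a-5p moved together (Pearson's r = 0.993), miR-142a-3p with miR-223-3p at 0.787 and with miR-150-5p at 0.538, and miR-150-5p with miR-223-3p at 0.571. Among 598 other miRNAs, those most like miR-142a-3p were miR-18a-5p (r = 0.944), miR-16-2-3p (0.940) and miR-92a-1-5p (0.925), and those most like miR-142a-5p were miR-25-3p (0.941), miR-18a-5p (0.936) and miR-16-2-3p (0.935). For miR-150-5p they were miR-150-3p (0.927), miR-5107-5p (0.858) and miR-466i-5p (0.821), and for miR-223-3p miR-223-5p (0.966), miR-511-3p (0.929) and miR-199a-5p (0.855). The other strand of the same hairpin thus came first for miR-150-5p and miR-223-3p. It was far less abundant, with miR-150-3p at 52.0 CPM in spleen and 0.856 in liver and miR-223-5p at 38.8 in spleen and 0.173 in brain. Without the pools miR-5104 was among the 3 for both miR-142a strands (0.927 and 0.918). The tissues share libraries and mice, and these values are a description.

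The 4 fat depots were compared within mice (30 tests, adjusted together). Both miR-142a strands were higher in MAT than in each other depot, and no pair passed for miR-150-5p with both extractions together. miR-142a-3p in MAT was 4.56-fold that of BAT (higher in 46 of 57 mice), 5.41-fold that of GAT (49 of 57) and 4.59-fold that of SCAT (44 of 55), each with an adjusted p of 5.00e-05. miR-142a-5p was 4.67-fold, 5.55-fold and 3.87-fold higher in MAT, though the last did not pass in LAR alone (2.30-fold, adjusted p = 0.0731). For miR-150-5p the extractions went apart. In TERM alone MAT was 3.48-fold above BAT (adjusted p = 0.00210), 2.69-fold above GAT (adjusted p = 0.00315) and 4.32-fold above SCAT (adjusted p = 0.000850), and GAT was 1.55-fold above SCAT (adjusted p = 0.0490). In LAR alone MAT was 2.00-fold below GAT (adjusted p = 0.0731) and 1.94-fold below SCAT (adjusted p = 0.130), which did not pass. miR-223-3p was highest in SCAT, above GAT by 1.29-fold (adjusted p = 0.0495), above MAT by 1.29-fold (adjusted p = 0.0472) and above BAT by 1.67-fold (adjusted p = 8.57e-05). Those to GAT and MAT did not pass within LAR (adjusted p = 0.298 and 0.0633) or within TERM (0.0904 and 0.457), and the one to BAT passed in each. The one to BAT reverses in rpmm, where BAT was above SCAT by 0.33 on the log2 scale. The ratio of miR-150-5p to miR-223-3p was lowest in SCAT, by 1.48-fold against BAT, 1.54-fold against GAT and 1.96-fold against MAT (adjusted p = 0.0472, 0.0472 and 0.0268). These differences came from TERM, where they were 2.12-fold, 2.02-fold and 4.81-fold, while in LAR alone they were 1.04-fold, 1.18-fold and, for MAT, turned below SCAT (log2 difference -0.37), with none passing. Without the pools that of MAT did not pass (adjusted p = 0.0572). Without the pools the MAT excess of miR-142a-3p was 11.2-fold over BAT, 8.92-fold over GAT and 6.52-fold over SCAT, and GAT held 1.53-fold more miR-150-5p than BAT (adjusted p = 0.0170).

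MAT is also the tissue whose libraries most often had the profile of another tissue. Of 57 MAT libraries, 12 were closest to MAT, 20 to pancreas, 12 to spleen and 7 to GAT. Mesenteric fat holds lymph nodes and lies beside the pancreas. In the 12 libraries with a spleen-like profile (1 of LAR, 11 of TERM), miR-142a-3p was 4961 to 17958 CPM (median 8677), miR-150-5p 62213 to 144535 (111269) and miR-223-3p 1171 to 3585 (2027). In the 20 with a pancreas-like profile (18 of LAR, 2 of TERM), miR-142a-3p was 325 to 10267 CPM (1275) and miR-150-5p 909 to 14449 (2582). The 12 closest to MAT ran from 218 to 14259 CPM of miR-142a-3p (4427) and from 1615 to 180520 of miR-150-5p (33941). The 7 closest to GAT held 123 to 1082 CPM of miR-142a-3p (494) and 2277 to 27419 CPM of miR-150-5p (15810). miR-150-5p was thus higher in every spleen-like than in every pancreas-like library, and the part of the profile in the fat depot and extraction results was not tested beyond the values given.

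**Figure D3:**
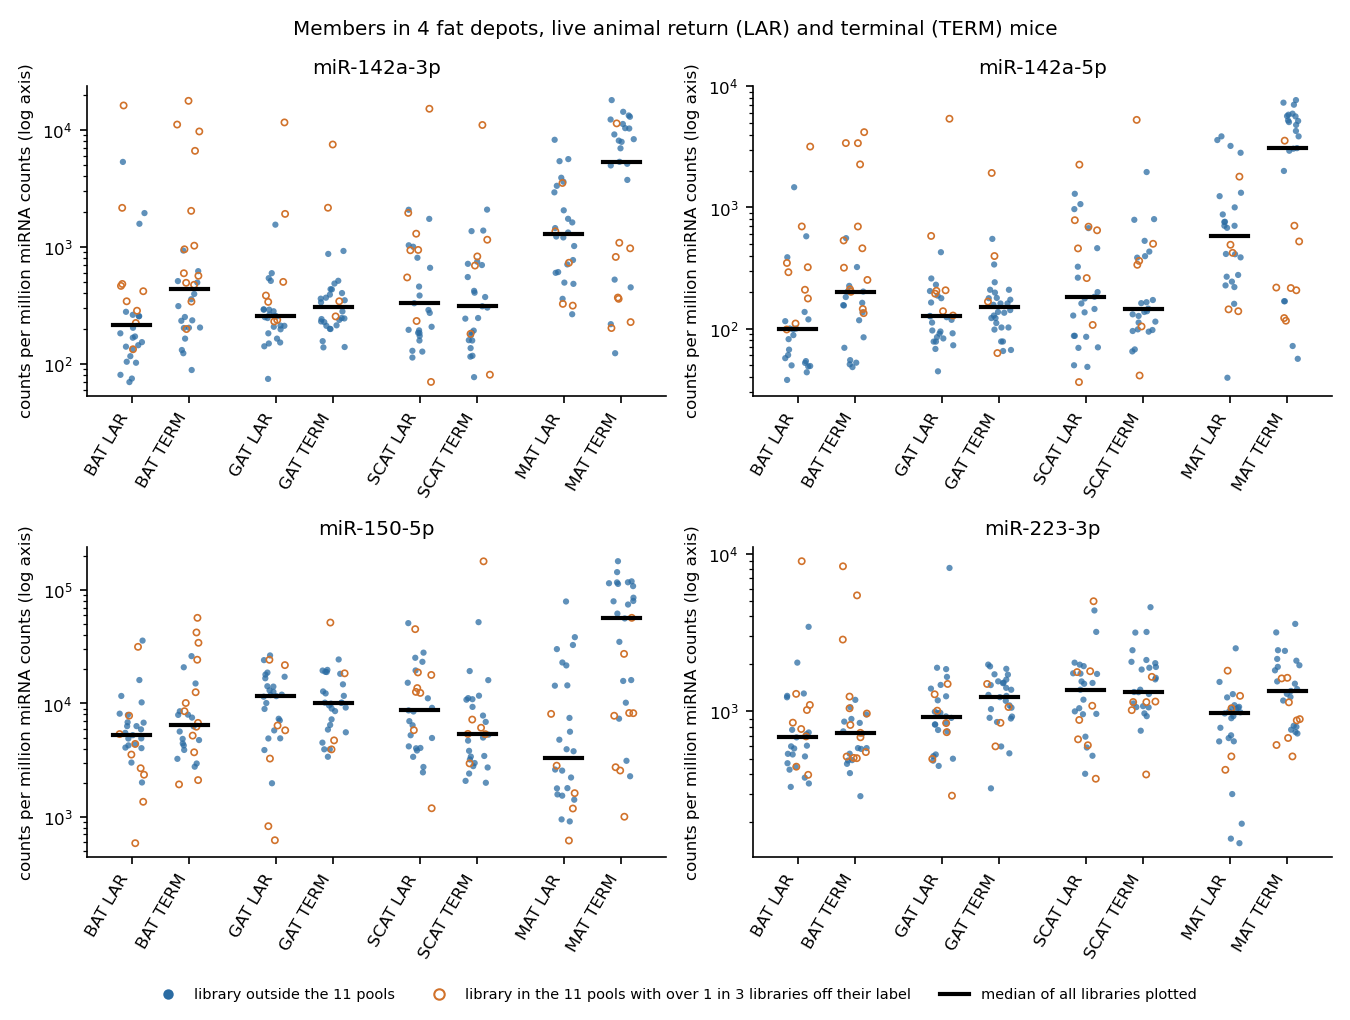
Level of each member (CPM, log axis) in each library of BAT, GAT, SCAT and MAT, by extraction (LAR, TERM). Points and bars are as in the plot of levels. MAT stands above the other depots in both miR-142a strands (medians of 1616 against 260 to 320 CPM for miR-142a-3p) and spreads widely in miR-150-5p, from 616 to 180520 CPM.

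LAR was compared with TERM in each tissue by edgeR's quasi-likelihood test with Benjamini-Hochberg adjustment over all miRNAs, as the mean of the 3 arms. Of 52 tests of the members 7 passed, 1 higher and 6 lower in LAR, while 4.65% of all miRNA tests of this comparison passed. In heart, miR-142a-3p was 68.7 to 994 CPM in LAR (median 155, n = 22) and 154 to 18682 in TERM (median 285, n = 28), and miR-142a-5p was 31.1 to 422 (76.2) against 74.9 to 5443 (139). The lowest LAR libraries lie below all of TERM, 1 or more TERM libraries lie far above all of LAR, and the groups overlap. The log2 differences were -2.21 (SE 0.48) and -2.01 (SE 0.42), both with an adjusted p of 0.00952 in a tissue where 0.631% of miRNAs passed. Without the 11 pools, whose TERM libraries held the highest values, they were -1.05 (adjusted p = 0.0112) and -1.07 (adjusted p = 0.00468), with 3.08% of heart miRNAs passing. With library sizes from 7 RNA classes they were -1.87 and -1.69, both with an adjusted p of 0.0773. With plate as a term they were -1.13 (adjusted p = 0.125) and -1.29 (adjusted p = 0.0256). Red cell miRNAs of heart moved the same way, miR-451a by -0.96, miR-144-3p by -1.20 and miR-144-5p by -1.19, being 3 of 6 on that list, while 0 of 7 other lymphoid and 0 of 4 other myeloid or pan-leukocyte miRNAs passed. The part of blood content in the heart values was not tested.

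In MAT, all 4 members were lower in LAR (n = 28) than in TERM (n = 29), where 26.3% of miRNAs passed and the median difference over all miRNAs was -0.14. miR-150-5p was 616 to 79572 CPM in LAR (median 3304) and 1000 to 180520 in TERM (median 56372), and fell by 2.25 on the log2 scale (SE 0.48, adjusted p = 0.000299). miR-142a-3p was 265 to 8220 (1275) against 123 to 17958 (5328), with a difference of -1.49 (SE 0.42, adjusted p = 0.00582), and miR-142a-5p also had -1.49 (SE 0.44, adjusted p = 0.00820). miR-223-3p was 146 to 2510 (978) against 518 to 3585 (1347), with -0.59 (SE 0.21, adjusted p = 0.0279). All these groups overlap. Beside this, 23 of the 28 LAR and 22 of the 29 TERM libraries were closer to another tissue, and among the 12 that were not, the differences were -0.74, -0.78 and -0.94 for miR-142a-3p, miR-142a-5p and miR-150-5p, none of which passed, and 0.034 for miR-223-3p. With library sizes from 7 RNA classes only miR-150-5p passed (-1.54, adjusted p = 0.0151). Of the other lists, 5 of 7 lymphoid miRNAs were lower (miR-150-3p, miR-155-3p, miR-155-5p, miR-342-3p and miR-342-5p, by -1.93 to -2.14) and 3 of 4 myeloid or pan-leukocyte ones (miR-142b -1.54, miR-146a-5p -1.90 and miR-223-5p -0.64), as was 1 of 6 red cell ones, miR-16-5p (-0.82). Without the pools the same 9 passed with miR-144-3p (1.13), miR-144-5p (0.79) and miR-181b-5p (0.56), which were higher in LAR. Of those counted, miR-142b and miR-155-3p were near the floor in MAT, with medians of 0 and at most 1.12 and 1.69 CPM.

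In thymus, miR-150-5p was 638 to 52380 CPM in LAR (median 15815, n = 30) and 479 to 26930 in TERM (median 8177, n = 28). LAR was higher by 0.94 (SE 0.27, adjusted p = 0.0221, with 10.4% of thymus miRNAs passing), and the groups overlap. The adjusted p was 0.0631 with plate as a term, and without the 11 pools the difference was 0.75 (adjusted p = 0.00542). With all libraries miR-142a-3p (-0.55, adjusted p = 0.324) and miR-142a-5p (-0.30, adjusted p = 0.583) did not pass. Without the pools they were lower in LAR, with miR-142a-3p at 2398 to 13799 CPM in LAR (median 6601) against 395 to 28730 in TERM (median 11172), a difference of -0.80 (adjusted p = 0.0103), and miR-142a-5p at -0.58 (adjusted p = 0.0158), with 21.0% of thymus miRNAs passing. Over all libraries, both directions turn with library sizes from 7 RNA classes (0.045 and 0.30), whereas that of miR-150-5p does not (1.57). Among the lists, 1 of 7 lymphoid miRNAs was also higher in LAR thymus, miR-342-5p (0.93). The lymphoid list had a median of -0.14 and a lowest of -0.73. Of 6 red cell miRNAs 2 were higher, miR-144-3p (0.84) and miR-451a (0.70). Without the pools miR-144-5p (0.73), miR-486a-5p (1.08) and miR-486b-5p (1.08) joined them, and miR-16-5p (-0.53), miR-146a-5p (-0.45) and miR-181b-5p (-0.70) were lower. In the spleen, whose TERM samples alone were kept in RNAlater, no member passed, and without the pools the differences were 0.11, 0.28, 0.03 and -0.19 for miR-142a-3p, miR-142a-5p, miR-150-5p and miR-223-3p. Also without the pools, miR-142a-3p was lower in LAR diaphragm by -1.23 (adjusted p = 0.0434, with 1.40% of diaphragm miRNAs passing, and 4.41% with all libraries). This was -0.79 with all libraries (adjusted p = 0.208) and -0.53 without every library closer to another tissue (adjusted p = 0.442), of which the TERM group still held 1, and its highest library was at 8569 CPM over the next at 2607. Without the pools 10 member tests passed in all, against 6.24% of all miRNA tests.

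Age was compared in the 12 tissues of each extraction that hold both ages. No member passed, in 48 tests of LAR (0.0308% of all miRNA tests passed) or 48 of TERM (0.922%). At an unadjusted p under 0.05 there were 17 and 14, beside 9.66% and 12.3% of all tests, and DESeq2 called 1 and 4, beside 0.413% and 2.49% of all. The largest difference was 2.28 for kidney miR-142a-3p in LAR, with an adjusted p of 0.154, beside 2.22 in TERM (adjusted p = 0.0855), and without the pools these were 1.13 and 0.37. In TERM 38 of 48 differences were toward 8 months, with a median of 0.53, and 38 of 48 with a median of 0.25 without the pools. In LAR 26 of 48 were, with a median of 0.071, and 24 of 48 with a median of 0.0057 without the pools.

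Without the 11 pools 6 tests passed in LAR and 0 in TERM, where 0.930% and 1.13% of all tests did. In TERM 8 were at an unadjusted p under 0.05, beside 10.6% of all. In LAR thymus, miR-150-5p was 4890 to 19507 CPM at 3 months (median 11353, n = 11) and 9109 to 41962 at 8 months (median 22319, n = 13). The older mice were higher by 0.91 (SE 0.20, adjusted p = 0.0147), and with all libraries by 0.92 (SE 0.35, adjusted p = 0.193). In the same libraries miR-142a-3p was 2937 to 13799 CPM at 3 months (9980) and 2398 to 8645 at 8 months (5653), a difference of -0.74 (adjusted p = 0.0340), beside -0.22 with all libraries. Both pairs of groups overlap, and 7.10% of thymus miRNAs passed there, against 0.148% with all libraries. In TERM thymus the miR-150-5p difference was 0.34 (adjusted p = 0.582, all libraries). On the lists, 3 of 6 red cell miRNAs were also higher at 8 months in those LAR thymus libraries. These were miR-486a-5p (1.10), miR-486b-5p (1.08) and miR-451a (0.64), while miR-16-5p (-0.54), also on that list, was lower. Of 7 lymphoid miRNAs 1 was lower, miR-181a-5p (-0.75), known from immature thymocytes. The lymphoid list had a median of 0.012 and a highest of 0.72. In LAR pancreas, miR-150-5p (-1.77), miR-142a-3p (-1.64) and miR-142a-5p (-1.32) were lower at 8 months (2.66% of pancreas miRNAs passed), where 1 library of 3 months held 91157, 16555 and 9521 CPM. Without libraries closer to another tissue these were -0.80, -0.80 and -0.59 and did not pass. With only the pools left out, 2 of 7 lymphoid miRNAs on the lists were also lower, miR-155-5p (-1.18) and miR-342-3p (-1.09). In LAR heart, miR-142a-3p was higher at 8 months by 0.91 (adjusted p = 0.0331, with 1.03% of heart miRNAs passing), and with all libraries the difference was 0.52 (adjusted p = 0.712). The red cell miRNA miR-144-3p was higher in the same libraries by 0.92 (1 of 6 on its list, list median 0.65), and the part of blood content was not tested.

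**Figure D4:**
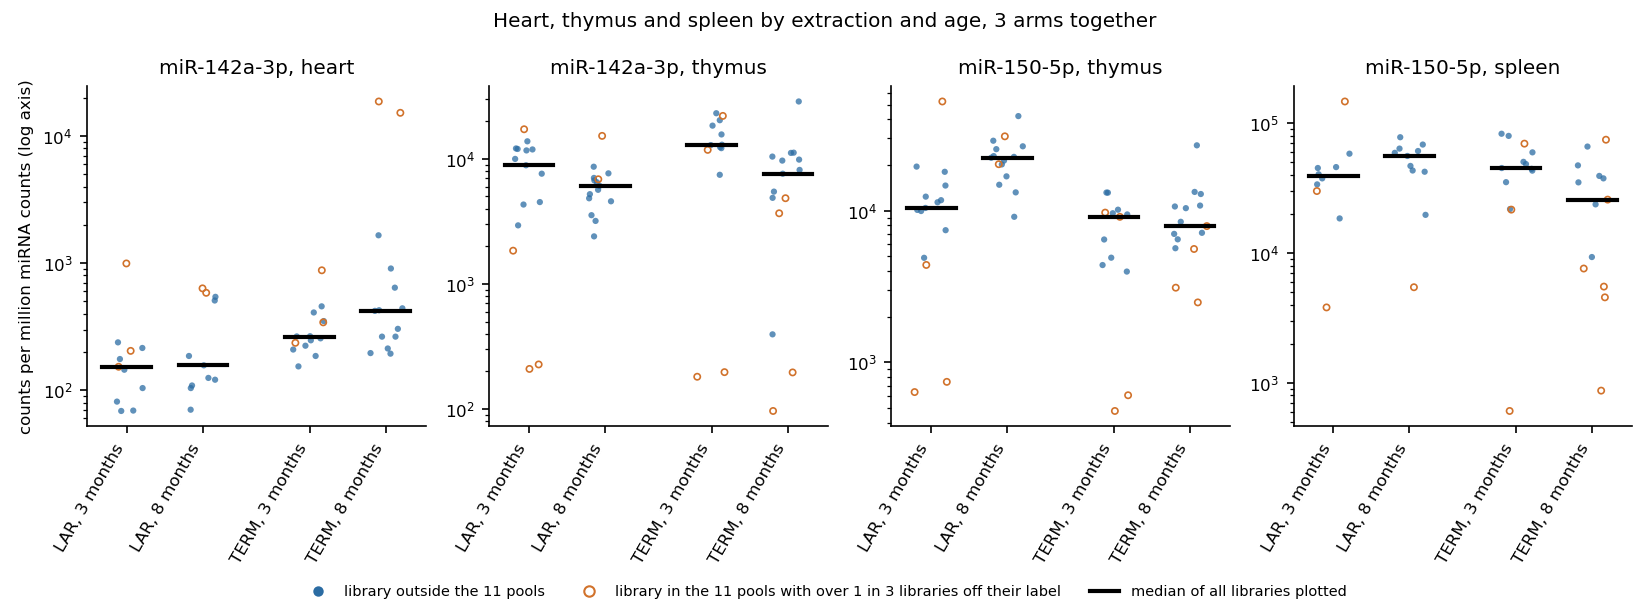
Level (CPM, log axis) in each library by extraction and age (3 or 8 months), for miR-142a-3p in heart, miR-142a-3p in thymus, miR-150-5p in thymus and miR-150-5p in spleen. Points and bars are as in the plot of levels. Heart miR-142a-3p sits lower in LAR (median 155 CPM) than in TERM (285 CPM), and thymus miR-150-5p is highest in LAR mice of 8 months (median 22319 CPM).

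FL was compared with HGC in each tissue and extraction. In LAR 2 of 52 member tests passed and in TERM 1, against 1.01% and 0.246% of all miRNA tests. In LAR SCAT, miR-142a-5p was 85.4 to 1066 CPM in FL (median 675, n = 9), 36.1 to 324 in HGC (median 141) and 49.7 to 2259 in VGC (median 144). FL was higher than HGC by 1.80 (SE 0.51, adjusted p = 0.0413), the groups overlap, and 3.62% of SCAT miRNAs passed. The difference was 1.73 without the pools (adjusted p = 0.0785, with 0.443% passing) and 2.60 with plate as a term (adjusted p = 0.000621). The call was also lost with age as a term (adjusted p = 0.0593), with library sizes from 7 RNA classes (0.0892), with no filter (0.0517), without the libraries closer to another tissue (0.112) and by the Wilcoxon test on rpmm (0.542). Of these libraries, 4 of 9 in FL and 2 of 10 in HGC were closer to another tissue. On the lists, 1 of 7 lymphoid miRNAs was higher with all libraries, miR-342-3p (1.25). Of 6 red cell miRNAs 2 were lower, miR-486a-5p (-1.99) and miR-486b-5p (-1.95). The other red cell miRNAs did not pass, with miR-144-3p at -0.36, miR-451a at 0.0087, miR-144-5p at 0.11 and miR-16-5p at 0.28. Without the pools miR-342-3p, miR-486a-5p and miR-486b-5p stood at 1.06, -1.08 and -1.01 and did not pass (adjusted p = 0.164, 0.231 and 0.248).

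In LAR BAT, miR-142a-3p was 74.7 to 16156 CPM in FL (median 302, n = 10), 69.7 to 255 in HGC (median 169) and 102 to 5318 in VGC (median 281). FL exceeded HGC by 3.00 (SE 0.79, adjusted p = 0.0338, with 4.36% of BAT miRNAs passing). The FL library at 16156 CPM, over the next at 1573, is closer to another tissue and in 1 of the 11 pools, and without the pools the difference was 1.00 (adjusted p = 0.975). On the lists, 1 of 3 myeloid or pan-leukocyte miRNAs tested was also higher with all libraries, miR-21a-5p (1.65), and 0 of 7 lymphoid ones. Without the pools no BAT miRNA passed. In TERM pancreas, miR-150-5p was 605, 1004, 1638 and 25405 CPM in FL, 621, 766, 935, 1232 and 2382 in HGC, and 1090 and 5736 in VGC. FL replicate 1, at 25405 CPM, lies far above the other 3 FL libraries, which overlap HGC. The difference of 2.67 (SE 0.63, adjusted p = 0.00381, with 1.48% of pancreas miRNAs passing) was 0.06 without that library, which is closer to another tissue, and did not pass without HGC replicate 5 (2.57). Without the pools, which do not hold that library, it was 3.02 (adjusted p = 0.000984, with 2.00% passing). On the lists, 2 of 7 lymphoid miRNAs were also higher in FL with all libraries, miR-150-3p (5.72) and miR-342-5p (3.59). Without the pools these were 3 of 7, miR-150-3p (5.47), miR-342-5p (3.97) and miR-342-3p (2.32). The lymphoid list ran down to -1.88 with all libraries and to -1.44 without the pools. Both sets hold FL replicate 1, and list values without it are not given here.

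For FL vs. VGC 1 of 52 tests passed in LAR (0.449% of all) and 1 in TERM (0.468%), and for HGC vs. VGC 0 in LAR (0.0796%) and 1 in TERM (0.183%). The LAR comparison of HGC with VGC had 13 tests at an unadjusted p under 0.05 (10.0% of all), and DESeq2 called 0 (0.341% of all). In LAR GAT, miR-142a-5p was 44.3 to 139 CPM in FL (median 91.0), 96.3 to 582 in HGC (183) and 72.7 to 5408 in VGC (164). FL was lower than VGC by -2.28 (adjusted p = 0.0336, with 1.48% of GAT miRNAs passing). The VGC library at 5408 CPM is closer to another tissue and in the 11 pools. Without the pools the difference was -0.99 (adjusted p = 0.235), and no GAT miRNA passed. In TERM liver, miR-142a-3p was 264 to 1438 CPM in FL (394), 154 to 739 in HGC (445) and 259 to 18753 in VGC (613). FL (-1.83, adjusted p = 0.0453, with 3.93% of liver miRNAs passing) and HGC (-2.11, adjusted p = 0.0257, with 2.38% passing) were lower than VGC, which they share, and without the pools, among them the VGC library at 18753 CPM, the values were -0.03 and -0.25. On the lists, 2 of 7 lymphoid miRNAs were lower in both comparisons with all libraries, miR-181a-5p (-2.98 and -2.68) and miR-181b-5p (-3.05 and -2.66). Without the pools no liver miRNA passed in either comparison. FL vs. HGC did not differ detectably between LAR and TERM for any member (0 of 52 by edgeR, with 0.728% of all tests passing, 8 at an unadjusted p under 0.05, beside 9.82% of all, and 4 by DESeq2, beside 0.906%). Without the 11 pools, FL vs. HGC had 0 member calls in LAR (0.165% of all tests passed) and 1 in TERM (0.160%), FL vs. VGC 0 and 0 (0.154% and 0.0971%), HGC vs. VGC 0 and 0 (0.136% and 0.0114%), and the test between LAR and TERM 0 (0.194%).

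**Figure D5:**
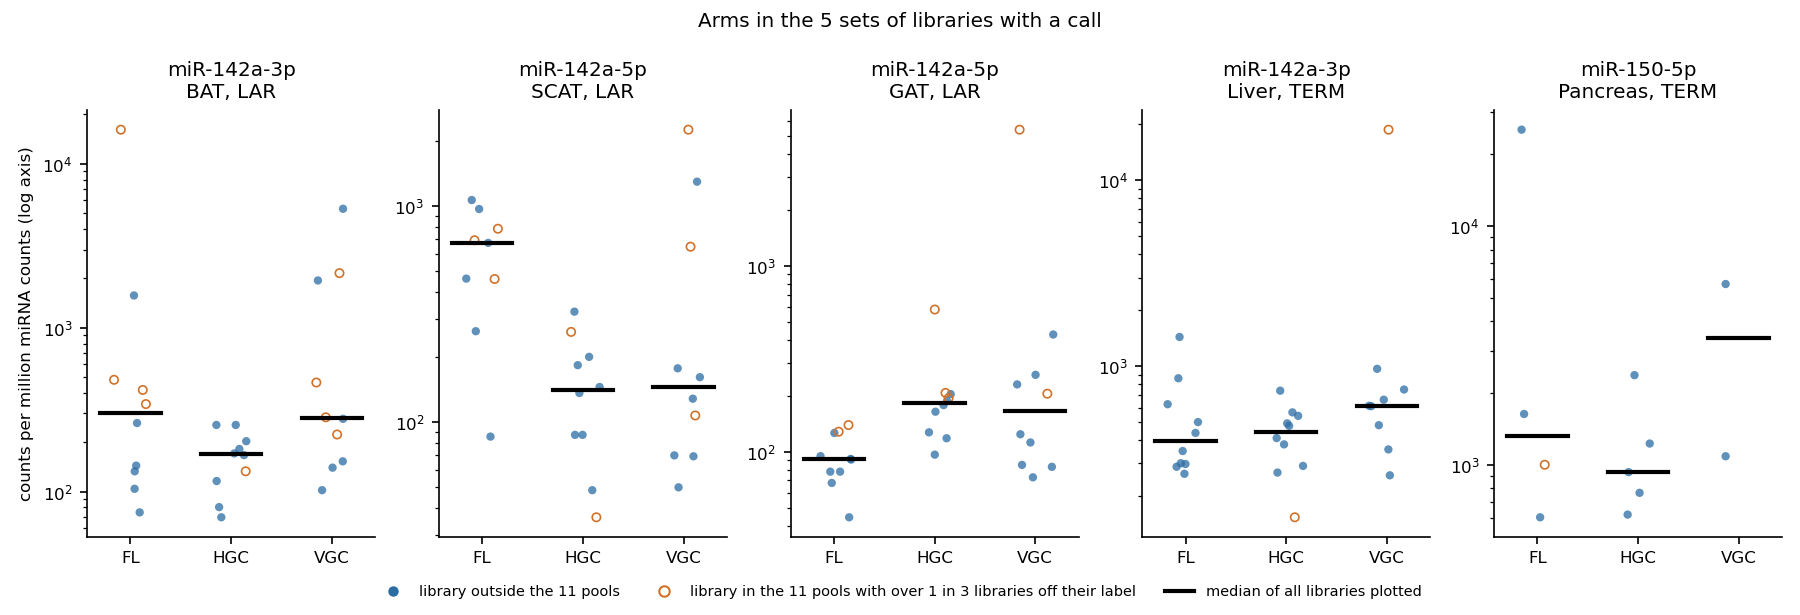
Level (CPM, log axis) in each library by arm (FL, HGC, VGC) for the tissues and members with a passing arm comparison: miR-142a-3p in LAR BAT, miR-142a-5p in LAR SCAT, miR-142a-5p in LAR GAT, miR-142a-3p in TERM liver and miR-150-5p in TERM pancreas. Points and bars are as in the plot of levels. Single libraries at 16156 CPM (BAT, FL), 5408 CPM (GAT, VGC), 18753 CPM (liver, VGC) and 25405 CPM (pancreas, FL) lie far above their groups, and in SCAT the FL median (675 CPM) is above that of HGC (141 CPM) without such a point.

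In the lymphoid organs no arm comparison passed. Spleen miR-150-5p in LAR was 37569 to 61023 CPM in FL (median 46372, n = 6), 5454 to 68443 in HGC (38487, n = 6) and 3813 to 146900 in VGC (45150, n = 9). FL minus HGC was 0.27 (SE 0.50), beside 0.17 (SE 0.62) for miR-142a-3p and 0.69 (SE 0.52) for miR-223-3p. In TERM spleen these were -0.25, -0.10 and -0.24. In thymus miR-142a-3p was -0.61 in LAR (SE 0.47, adjusted p = 0.650) and 0.40 in TERM, and miR-150-5p -0.08 and -0.29. Differences of this size were not detectable here.

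The ratio of miR-150-5p to miR-223-3p was also compared between arms, in 26 permutation tests for each pair of arms. None passed, with smallest adjusted p-values of 0.563 for FL vs. HGC, 0.462 for FL vs. VGC and 0.358 for HGC vs. VGC, and 2, 1 and 1 tests at an unadjusted p under 0.05. In spleen the difference of FL from HGC was -0.54 in LAR (adjusted p = 0.827, exact permutation test) and -0.0019 in TERM. In thymus it was -0.048 and -0.072. The test of whether FL vs. HGC differed between ages passed for no member in either extraction (0 of 48 each by edgeR, with 0.0985% and 0.767% of all tests passing, 10 and 7 at an unadjusted p under 0.05, beside 8.11% and 9.18% of all, and 1 and 0 by DESeq2, beside 0.499% and 1.38%). Without the pools, 0 of 48 tests in LAR (0.111% of all) and 1 of 36 in TERM (0.371% of all, 0.0742% of SCAT miRNAs) passed. There SCAT miR-150-5p was 3395, 4699, 19334 and 52261 CPM in FL at 3 months and 1995, 2073 and 3204 at 8 months. In HGC it was 2722, 2796, 3818, 5307 and 16076 at 3 months and 6876, 9330, 10910 and 11714 at 8 months. In these libraries all of FL lay below all of HGC at 8 months, and at 3 months the arms overlapped. The difference between the ages in FL vs. HGC was -3.29 (adjusted p = 0.0201 by edgeR). With all libraries FL at 8 months was 1995, 2073, 3204 and 5388 CPM and HGC 2958, 6876, 9330, 10910 and 11714, which overlap, and the difference was -2.59 (adjusted p = 0.793).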

How the data were processed

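The authors used miRMaster to map the reads against GRCm39 and to count them on miRBase entries. For miRNAs, the deposited unit is the estimated count of the authors, not normalized, of which 0.790% are not whole, and the deposited values of 6 other RNA classes are whole counts, used here only for totals over 7 classes. Pools and plates came from the study's sample list. CPM were computed from the values as deposited, log2 values with 1 CPM added. Counts were rounded and fitted with edgeR 4.0.16 (limma 3.58.1, R 4.3.3) with TMM factors, 1 fit per tissue and extraction, arm as a term for age, over miRNAs that reached 5 reads in 10% or more of the libraries of some tissue and arm (1353 in LAR, 1347 in TERM, 1427 in both). Calls used a Benjamini-Hochberg adjusted p under 0.05 over all miRNAs. Alternatives were DESeq2 1.42.0, other scalings and filters, left-out libraries, plate, age and block terms. The fits and permutation tests were tested on simulated data. Differences within mice used 100000 sign flips (smallest p 1e-05), exact under 10 mice, in Python 3.11.15 with numpy 2.4.6, pandas 2.3.3 and matplotlib 3.10.9. The profile of a library was compared with tissue medians over 724 miRNAs that varied over 2-fold. The 11 pools are those with more than 1 in 3 libraries closer to another tissue.

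The members are given by name by a rule without measured values, but they and the lists were chosen with earlier results of these data known. Named beside the members are the 3 miRNAs most like each in tissue medians, and, from lists of lymphoid, myeloid or pan-leukocyte and red cell miRNAs, those called where a member was called, with miR-150-3p, miR-223-5p and miR-451a. Replicates are libraries of different mice, and the number of libraries and their depth limit the precision.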

Additional observations from a re-analysis of the deposited data

Results flagged for a closer look

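In 8 of 48 groups of 4 to 10 libraries tested in the comparisons above, 1 library lay far from the rest of its group by Dixon's criterion, beside 84 of 308 (27.3%) over all tissues and members, where chance would give about 1 in 20. Of the 8 cases, 3 are in libraries closer to another tissue. These were miR-142a-3p in TERM liver of VGC replicate 14 (18753 CPM, median of the others 612), and miR-142a-5p in LAR GAT of HGC replicate 14 (582 CPM against 178) and of VGC replicate 1 (5408 CPM against 124). In brain, VGC replicate 5 of LAR was high in miR-142a-5p (289 CPM against 10.8) and in miR-223-3p (563 CPM against 25.6), FL replicate 17 of TERM was high in miR-223-3p (387 CPM against 29.9), and VGC replicate 9 of TERM was low in miR-142a-5p (9.82 CPM against 18.4). In TERM pancreas, HGC replicate 3 was high in miR-223-3p (1022 CPM against 312).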

How the results depend on the processing

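Of the comparisons between arms, none was stable in its count of member calls. FL vs. HGC had 3 calls over both extractions, all higher in FL, and 6 with DESeq2 (in LAR 4 higher, in TERM 2 lower, with no adjusted p for TERM pancreas miR-150-5p), 5 with miRNA totals without TMM, 1 without the 11 pools, 1 with age as a term and 0 with the Wilcoxon test on rpmm. FL vs. VGC had 2, with 4 for DESeq2, 1 for library sizes of 7 classes and 0 without the pools, with plate, with age or with the Wilcoxon test. HGC vs. VGC had 1, with 2 for DESeq2, 4 without TMM and 0 for library sizes of 7 classes, without the pools, without libraries closer to another tissue, with plate, with age or with the Wilcoxon test. For age (0 calls) there were 5 with DESeq2, 2 with library sizes of 7 classes, 1 with no filter, 6 without the pools, 4 without libraries closer to another tissue and 1 with plate. For age by flight (0 calls) these were 1, 2, 1 and 1, with 1 for plate. FL vs. HGC by extraction (0 calls) had 4 with DESeq2. LAR vs. TERM had 7 calls, and 5 to 10 under the alternatives, but not the same ones. Library sizes of 7 classes gave 9 calls and lost both of heart and those of MAT miR-142a-3p, miR-142a-5p and miR-223-3p. Leaving out libraries closer to another tissue lost all 4 of MAT, and plate as a term lost heart miR-142a-3p and thymus miR-150-5p. The causes of these changes were not tested.

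With the replicate number as a block, FL vs. HGC had 2 calls, and FL vs. VGC and HGC vs. VGC had 0. The same number in another arm is another mouse, and 653 pairs of same-numbered libraries had a median correlation of deviations of 0.0255 (253 over 0.1), beside 0.0287 for 2535 pairs of other numbers, so the block is no pairing of arms. Between tissues of 1 mouse, 4 of 48 steps in level passed, and 10 with no replicate block, 9 without the pools, 9 without libraries closer to another tissue, 2 in TERM only (of 11, 11, 10 and 11 steps that could be tested for miR-142a-3p, miR-142a-5p, miR-150-5p and miR-223-3p), 36 with rpmm and 19 with TMM, of which 3 for each member with rpmm and 1 for each miR-142a strand with TMM went against the order by CPM. Fat depots had 12 of 30, and 6 in LAR only and 17 in TERM only. Among results called with all libraries, directions turned in 5 cases, FL vs. VGC of TERM liver miR-142a-3p by the Wilcoxon test on rpmm (0.019), LAR vs. TERM of MAT miR-223-3p without libraries closer to another tissue (0.034), pancreas minus kidney of miR-150-5p (-0.85) and BAT minus SCAT of miR-223-3p (0.33) in rpmm, and MAT minus SCAT of the miR-150-5p to miR-223-3p ratio in LAR only (-0.37). Over all libraries, thymus miR-142a-3p and miR-142a-5p in LAR vs. TERM, which did not pass there (-0.55 and -0.30), turned with library sizes of 7 classes (0.045 and 0.30). Over 32 single results and 249 alternatives, 174 kept direction and call and 70 lost the call. For the arm comparisons this was 18 of 60.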

Other observations

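The red cell miRNA miR-451a, a marker of erythroid cells, had its own order over tissues. Its median was 98434 CPM in spleen, 76811 in lung and 69635 in heart, then 41532 in kidney, 32580 in liver and 31828 in thymus, and it was lowest in brain at 3717 CPM. Lung and heart, which are next to the spleen in miR-451a, held 616 and 243 CPM of miR-142a-3p, against 7601 CPM in thymus. The brain thus had the lowest median of miR-451a as well as of miR-142a and miR-223-3p, while its miR-150-5p (3190 CPM) lay close to that of heart (3384 CPM). These are medians over libraries with no test.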
